A study of Homo sapiens with 31 samples.

Results

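The mRNAs of 5 subunits of the CCR4-NOT complex and of the RNA helicase DDX6 were followed through 31 sequencing libraries of HEK293 T-REx cells, an established human embryonic kidney line that carries a tetracycline repressor for inducible transgenes. The 6 genes were CNOT1, CNOT2, CNOT3, CNOT7, CNOT8 and DDX6. Each was represented by 1 listed Ensembl transcript whose counted length was the protein length in amino acids minus 9, with a tolerance of 5. All 6 were found with that length exactly, among 35498 transcripts kept at 1 per locus. Ribosome profiling, which sequences the mRNA fragments (footprints) that ribosomes protect from RNase I, was done in naive cells and in cells with a knockout (KO) of EIF4A1 or of EIF4A2. Each genotype had 2 DMSO libraries, 1 library after 30 min with 1 µM PP242 and 1 after 30 min with 10 µM PP242. PP242 inhibits the mTOR kinase. RNA-seq had 2 libraries from naive cells and 2 from EIF4A1 KO cells. In the pulldown experiments, eIF4A1 or eIF4A2 fused to the streptavidin-binding peptide SBP was bound to streptavidin beads. The RNA that came off with biotin and the input RNA were sequenced, with 2 libraries of each kind per protein. A second SBP-eIF4A1 experiment followed 72 h of siRNA. It had 2 input and 2 pulldown libraries with control siRNA (siControl), 2 input libraries with LARP1 siRNA (siLARP1) and 1 siLARP1 pulldown library. The labels do not say whether a KO line is a single clone, how much tagged protein the cells made, or whether replicates were separate cultures, so p-values measure the spread between these libraries. No pulldown from cells without a tagged protein was analysed here, so RNA that binds the beads themselves is part of each capture value.

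CCR4-NOT is the main deadenylase of the cytoplasm: it shortens poly(A) tails and thereby starts mRNA decay and translational repression. CNOT1 is the scaffold on which the other subunits assemble, CNOT2 and CNOT3 form the NOT module at its C-terminal end, and CNOT7 and CNOT8 are paralogous deadenylases that take the same place in the complex. DDX6 is a DEAD-box helicase that binds CNOT1 and links the complex to decapping factors and to repression by microRNAs. eIF4A1 and eIF4A2 are paralogous DEAD-box helicases of translation initiation, and eIF4A2 has been reported to act together with CCR4-NOT in repression. LARP1 binds mRNAs that begin with a terminal oligopyrimidine (TOP) sequence, a C followed by a run of pyrimidines, and represses them when mTORC1 is inactive.

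The transcripts were ENST00000317147 for CNOT1, ENST00000229195 for CNOT2, ENST00000221232 for CNOT3, ENST00000361272 for CNOT7, ENST00000285896 for CNOT8 and ENST00000534980 for DDX6. The counted length, 9 codons short of each protein, places the counts in the coding sequence. In the RefSeq table of GRCh38.p14, the CNOT1 gene spans chr16:58519951-58629826, CNOT2 chr12:70243018-70354993, CNOT3 chr19:54137762-54155681, CNOT8 chr5:154858249-154876792 and DDX6 chr11:118747763-118791744. How reads shared by CNOT7 and CNOT8, or by other paralogs named below, were assigned is not given in the sources used here, so values of paralogs may contain some of each other's reads.

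Because PP242 acts on TOP mRNAs, the first 20 bases of the genes are shown for 4 of the 6 members and for 4 TOP mRNAs from the control of the treatment, chosen because their listed start has the pyrimidine run. They were read from RefSeq sequence of GRCh38.p14 at the most upstream listed start, written 5′ to 3′, with the first 5 bases in capitals, since these 5 decide the pyrimidine start.
CNOT2 (chr12:70243018-70243037, plus strand): ACGAAcacgctcagcgtccc
CNOT3 (chr19:54137762-54137781, plus strand): ATCTTggaccgggcccggtc
CNOT8 (chr5:154858249-154858268, plus strand): AAAGAggaccaaaatggagg
DDX6 (chr11:118791725-118791744, minus strand): AGACGcgcgcccggcgtctc
RPS6 (chr9:19380217-19380236, minus strand): CTCTTttccgtggcgcctcg
RPLP0 (chr12:120201092-120201111, minus strand): CCTTCtctcgccaggcgtcc
EEF1A1 (chr6:73521013-73521032, minus strand): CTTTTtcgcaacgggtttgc
EEF2 (chr19:3985444-3985463, minus strand): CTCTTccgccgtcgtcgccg
A C at the first base followed by 4 bases that are each C or T, on the strand of the gene, was in 0 of 10 starts listed for CNOT2, CNOT3, CNOT8 and DDX6. It was in 4 of 6 starts listed for the TOP control genes, those shown, and not in those of RPL3 and RPL4. It was in 4.07% of 35116 starts in the whole table. A start in the table need not be the one used in these cells.

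Library depth, summed over 1 transcript per locus, was 2514890 to 6419976 counts in the 12 footprint libraries, 11889850 to 17642127 in the 15 input and pulldown libraries and 19706098 to 21630742 in the 4 RNA-seq libraries. As a check of the labels, EIF4A1 RNA fell by 1.13 on the log2 scale in EIF4A1 KO cells and EIF4A1 footprints fell by 2.25, while EIF4A2 RNA rose by 0.98 and EIF4A2 footprints by 2.32. In EIF4A2 KO cells, EIF4A2 footprints fell by 1.24. Coding-sequence counts do not test the deletion itself. The library labelled siLARP1 input replicate 2 stood apart. It had 11909 EIF4A2 counts and 20576 EIF4A1 counts, against 3669 to 5421 and 37042 to 50380 in the other 3 siRNA inputs, whereas SBP-eIF4A2 inputs had 16807 and 17687 EIF4A2 counts. LARP1 was low in it (866 counts, against 1188 in siLARP1 replicate 1 and 3246 and 2161 in siControl). The members' calls in the siLARP1 comparisons below are therefore given with and without that library. Other siLARP1 values, also the capture ratios to the mean of both inputs, include it unless stated.

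Levels were compared between the genes as counts per 1000000 counts of the library (CPM), divided by the coding length and given per 1000 counted codons. In naive RNA-seq, CNOT7 was the most abundant member, at 362 and 337 in the replicates, and CNOT3 the least, at 19.6 and 19.1. Between them lay CNOT8 (154 and 155), DDX6 (145 and 133), CNOT1 (130 and 128) and CNOT2 (126 and 114). No neighbours in that order overlapped between replicates, but the middle 4 lay within 114 to 155. In naive footprints the order was another one. DDX6 led at 483 and 460 CPM per 1000 codons. CNOT7 (217 and 180), CNOT1 (190 and 192) and CNOT8 (196 and 150) overlapped one another, and CNOT2 (140 and 131) and CNOT3 (120 and 126) followed.

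The ratio of footprint level to RNA level in naive cells, a relative measure of translation per mRNA, ranged from 0.568 to 6.38 over the 6 members. CNOT3 had the highest ratio, 6.38 (6.15 to 6.62 over the pairs of libraries), which lay at percentile 98.5 of 18469 transcripts. DDX6 followed at 3.39 (percentile 95.4). CNOT1 stood at 1.48 (percentile 72.6). CNOT2 (1.13, percentile 56.2) and CNOT8 (1.12, percentile 55.4) lay near the median of 1.03, and CNOT7 was lowest at 0.568 (percentile 16.5). CNOT7, with the lowest ratio, also had the most mRNA of the members, and CNOT3, with the highest, the least. The RNA level divides the ratio, so this inverse order is partly built in. The CNOT3 ratio rests on a low RNA-seq level. In the inputs of the pulldown experiment without siRNA, CNOT3 stood at 54.6 and 54.1 in SBP-eIF4A1 cells and 54.8 and 49.5 in SBP-eIF4A2 cells. Mean input levels in these cells, scaled separately from RNA-seq, were also higher for CNOT1 (230 and 287, against 129 in naive RNA-seq). The same held for DDX6 (216 and 217 against 139) and CNOT7 (439 and 429 against 349). CNOT2 stood at 118 and 127 against 120, and CNOT8 at 133 and 126 against 155. The ratios use RNA-seq levels only.

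**Figure D1:**
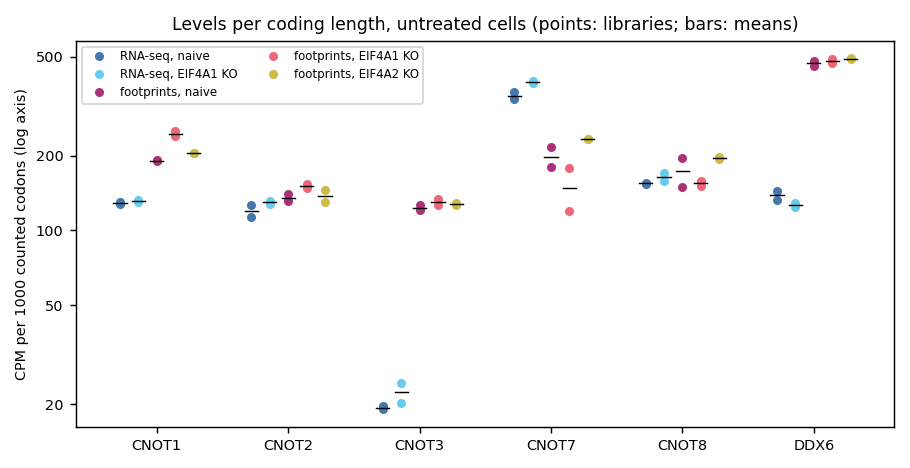
Level of each member in CPM per 1000 counted codons (log axis) in untreated cells, with 1 point per library and a bar at the mean of the 2 libraries. CNOT7 leads in RNA-seq at 337 to 362 in naive cells, DDX6 leads in footprints at 460 to 483, and CNOT3 has the lowest RNA-seq level at 19.1 to 19.6.

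Loss of EIF4A1 changed the RNA of 1 of the 6 members. CNOT7 RNA was 99.8 and 92.9 CPM in naive cells and 110 and 108 CPM in EIF4A1 KO cells, with no overlap, a rise of 0.18 ± 0.05 on the log2 scale (SE; adjusted p = 0.0028, edgeR quasi-likelihood test with Benjamini-Hochberg adjustment, as for every adjusted p below unless another test is named). Of all 25743 transcripts tested, 36.5% were called at an adjusted p under 0.05, so 1 of 6 is below the background. CNOT1 RNA was level, at 308 and 303 CPM in naive and 314 and 308 CPM in KO cells (log2 difference 0.03 ± 0.03). DDX6 was the one member with lower RNA in KO cells, at 68.6 and 63.1 CPM in naive and 61.3 and 59.1 CPM in KO cells (-0.13 ± 0.06, adjusted p = 0.066). CNOT2 (0.11), CNOT3 (0.21) and CNOT8 (0.09) also missed the threshold. Of these, CNOT2 passed without naive replicate 1 (adjusted p = 0.015), CNOT3 without KO replicate 2 (0.036) and DDX6 without naive replicate 2 (0.014).

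Footprints in DMSO moved in opposite directions for the scaffold and for one deadenylase. CNOT1 footprints were 449 and 453 CPM in naive cells and 596 and 566 CPM in EIF4A1 KO cells, a rise of 0.36 ± 0.06 (1.29-fold, adjusted p = 3.0e-07). CNOT7 footprints were 59.9 and 49.7 CPM in naive cells and 32.9 and 49.1 CPM in KO cells, a fall by 0.42 ± 0.13 on the log2 scale (adjusted p = 0.014). The CNOT1 groups lay far apart, whereas for CNOT7 KO replicate 2 came close to naive replicate 2. With 2 of 6 members called, the share was near the 22.7% of 19843 transcripts called in this comparison. CNOT2 (0.16), CNOT3 (0.08), CNOT8 (-0.15) and DDX6 (0.02) did not pass. The CNOT7 call was lost without naive replicate 1 (-0.29, adjusted p = 0.195), without KO replicate 1 (-0.16, adjusted p = 0.608) and with DESeq2's Wald test (adjusted p = 0.121).

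In EIF4A2 KO cells, 0 of 6 members were called against naive cells, where 8.04% of transcripts were. The members' log2 differences lay between 0.02 and 0.24, with 1 of the 6 (CNOT7, 0.24) at an unadjusted p under 0.05. DESeq2's Wald test also called 0 of 6. CNOT7 footprints were 64.6 and 64.2 CPM in these cells, and CNOT1 footprints 485 and 486 CPM. This comparison shares the naive libraries with the one before.

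The direct comparison of the KO lines uses no naive library in its contrast. CNOT1 footprints were higher in the EIF4A1 KO line than in the EIF4A2 KO line by 0.26 ± 0.06 (adjusted p = 0.00029), and CNOT7 footprints were lower by 0.66 ± 0.13 on the log2 scale, 1.58-fold (adjusted p = 3.6e-05). Of all transcripts, 22.6% were called. CNOT8, the paralog of CNOT7, was 42.8 and 45.0 CPM in EIF4A1 KO and 55.1 and 55.8 CPM in EIF4A2 KO cells. The CNOT8 groups did not overlap, but the difference of -0.34 ± 0.13 stood at an adjusted p of 0.051. It passed without either naive library (adjusted p = 0.048 in each case). The CNOT7 call was lost without EIF4A1 KO replicate 1 (-0.40, adjusted p = 0.093).

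Footprints were also set against RNA within one fit, where the interaction of assay and genotype gives the change of translation efficiency. CNOT1 efficiency rose by 0.33 ± 0.07 in EIF4A1 KO cells (1.25-fold, adjusted p = 0.00018) and CNOT7 efficiency fell by 0.61 ± 0.14 on the log2 scale (1.53-fold, adjusted p = 0.0011). Of 25457 transcripts, 9.49% were called, against 2 of 6 members. CNOT2 (0.03), CNOT3 (-0.14), CNOT8 (-0.25) and DDX6 (0.15) did not pass. In ratios of levels, CNOT7 went from 0.568 in naive to 0.375 in KO cells and CNOT1 from 1.48 to 1.87. The CNOT7 value moved to -0.39 without KO footprint replicate 1 and was then not called (adjusted p = 0.160). CNOT8 passed without naive footprint replicate 2 (-0.48, adjusted p = 0.037).

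**Figure D2:**
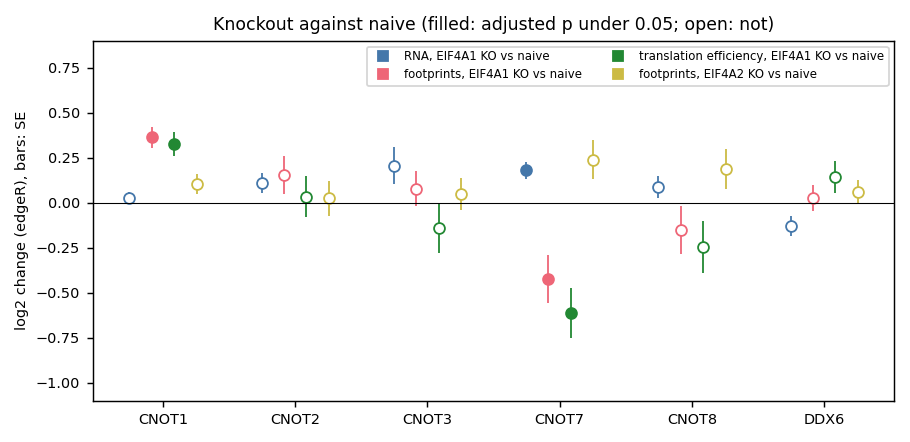
Log2 change of each member with its SE in EIF4A1 KO cells (RNA, footprints, translation efficiency) and EIF4A2 KO cells (footprints), each against naive cells; filled points passed an adjusted p of 0.05. CNOT1 lies above 0 in footprints (0.36) and efficiency (0.33), and CNOT7 lies above 0 in RNA (0.18) and below 0 in footprints (-0.42) and efficiency (-0.61).

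Other genes of the pathway were counted from lists of 7 further CCR4-NOT subunits and partners, 12 deadenylation adaptors and other deadenylases, 10 decapping factors and DDX6 partners, and 7 microRNA silencing factors. In EIF4A1 KO footprints, 1 of 7 in the first list was called, lower: CNOT6, a deadenylase of the CCR4 type, fell by 0.90 ± 0.17 on the log2 scale (adjusted p = 6.6e-06). Among the adaptors, BTG3 rose by 0.84. Here and below, that name covers the whole list of 12, which also holds the deadenylases PAN2 and PARN. XRN1, the exonuclease that degrades decapped mRNA, rose by 0.93 ± 0.11 and LSM14A by 0.17, 2 of 10 in their list. AGO3 rose by 0.58, the 1 of 7 called among the silencing factors. The list medians lay between -0.03 and 0.10, and the median of all transcripts was -0.01.

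The RNA of 5 of the 12 adaptors changed in EIF4A1 KO cells, a share near the 36.5% of all transcripts. Of these 4 rose, led by BTG3 (0.58) and TOB2 (0.50). Of the decapping list 4 of 10 rose and 1 fell, with EDC4 (0.44) and XRN1 (0.38) the furthest. CNOT4 (0.38) and CNOT10 (0.35) rose, 2 of 7, and TNRC6A (0.29), 1 of 7. Translation efficiency fell for CNOT6 (-0.87) and CNOT10 (-0.35), 2 of 7. In the decapping list it rose for XRN1 (0.54) and fell for EDC4 (-0.40), 2 of 10. None of the 7 silencing factors was called in efficiency by edgeR. In EIF4A2 KO footprints the calls were XRN1 (0.35), 1 of 10, and AGO4 (0.64), 1 of 7, with 0 of 7 and 0 of 12 in the other lists.

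PP242 changed footprints of the members far less than those of TOP mRNAs. Footprints of the 8 TOP control mRNAs fell in 8 of 8 cases in each genotype, with a median log2 change of -2.25 for naive cells, -1.54 for EIF4A1 KO cells and -2.52 for EIF4A2 KO cells. The members' changes lay between -0.13 and 0.39. The treated libraries of a genotype, 1 per dose, were tested together against its 2 DMSO libraries. CPM are scaled shares of a library, so a rise or fall under PP242 is relative to the other transcripts. The total amount of footprints was not measured here and no RNA-seq library was labelled with PP242. A rise therefore does not show more translation in absolute terms.

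In naive cells 2 of 6 members rose, where 9.37% of 20504 transcripts were called. CNOT8 footprints were 55.4 and 42.5 CPM in DMSO, 66.6 CPM with 1 µM and 60.3 CPM with 10 µM PP242, a rise of 0.39 ± 0.11 (adjusted p = 0.015). CNOT2 footprints were 74.4 and 69.6 CPM in DMSO, 87.3 CPM with 1 µM and 90.1 CPM with 10 µM, a rise of 0.30 ± 0.10 (adjusted p = 0.041). Both treated libraries lay above both DMSO libraries for each gene. CNOT7 (0.27), CNOT3 (0.25), CNOT1 (0.17) and DDX6 (0.09) were also above 0 without passing. The CNOT2 call was lost without any one of the 4 naive libraries (adjusted p between 0.064 and 0.282) and without EIF4A1 KO DMSO replicate 1 (0.053). The CNOT8 call was lost without naive DMSO replicate 2 (0.21, adjusted p = 0.469) and without the naive 1 µM library (0.31, adjusted p = 0.331), and DESeq2's Wald test called neither gene.

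In EIF4A1 KO cells 0 of 6 members were called by edgeR or by DESeq2's Wald test, where edgeR called 6.04% of transcripts. At an unadjusted p under 0.05 stood CNOT1 (-0.13) and CNOT8 (0.28). CNOT1 footprints were 596 and 566 CPM in DMSO, 518 CPM with 1 µM and 540 CPM with 10 µM. CNOT8 footprints were 42.8 and 45.0 CPM in DMSO, 53.5 CPM with 1 µM and 53.1 CPM with 10 µM. The treated libraries thus lay below DMSO for the scaffold and above it for the deadenylase.

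In EIF4A2 KO cells 2 of 6 members rose, where 11.7% of transcripts were called. CNOT1 footprints were 485 and 486 CPM in DMSO, 582 CPM with 1 µM and 588 CPM with 10 µM, a rise of 0.27 ± 0.06 (adjusted p = 0.00069). CNOT8 footprints were 55.1 and 55.8 CPM in DMSO, 69.8 CPM with 1 µM and 70.7 CPM with 10 µM, a rise of 0.34 ± 0.11 (adjusted p = 0.021). The replicates agreed closely in both genes and the treated libraries lay above them. DDX6 (0.15), CNOT2 (0.15), CNOT3 (0.06) and CNOT7 (-0.09) did not pass. The CNOT1 call was lost with a dose score of 0, 1 and 2 in place of the grouping of doses (adjusted p = 0.261). The CNOT8 call was lost with it too (0.275) and without any one of the 4 EIF4A2 KO libraries, with adjusted p between 0.084 and 0.121, while its log2 change stayed between 0.33 and 0.35.

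The PP242 response of CNOT1 differed between genotypes by a test of the difference. It was lower in EIF4A1 KO than in naive cells by 0.30 ± 0.09 on the log2 scale (adjusted p = 0.022), 1 of 6 members, where 6.07% of transcripts were called. Against EIF4A2 KO cells it was lower in EIF4A1 KO cells by 0.40 ± 0.09 (adjusted p = 0.0010), again 1 of 6 members, where 6.21% of transcripts were called. Both differences share their DMSO libraries with the CNOT1 footprint differences in DMSO described above, so they are not separate from them. With 1 µM and 10 µM PP242, CNOT1 stood at 508 and 509 CPM in naive and 518 and 540 CPM in EIF4A1 KO cells. In EIF4A2 KO cells it stood at 582 and 588 CPM. Between EIF4A2 KO and naive cells 0 of 6 members were called by edgeR or by DESeq2's Wald test, where edgeR called 0.0683% of transcripts, and CNOT7 alone was at an unadjusted p under 0.05 (-0.36). The first of these CNOT1 calls was lost without either naive DMSO library (adjusted p = 0.057 and 0.062), the naive 1 µM library (0.053), EIF4A1 KO DMSO replicate 1 (0.164) or the EIF4A1 KO 1 µM library (0.110). The second held without any single library and was lost when a dose score of 0, 1 and 2 replaced the grouping of doses (adjusted p = 0.513). Over the settings other than omissions of 1 library, transcripts called in the second difference ranged from 1 to 3762, against 1274 in the main fit.

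**Figure D3:**
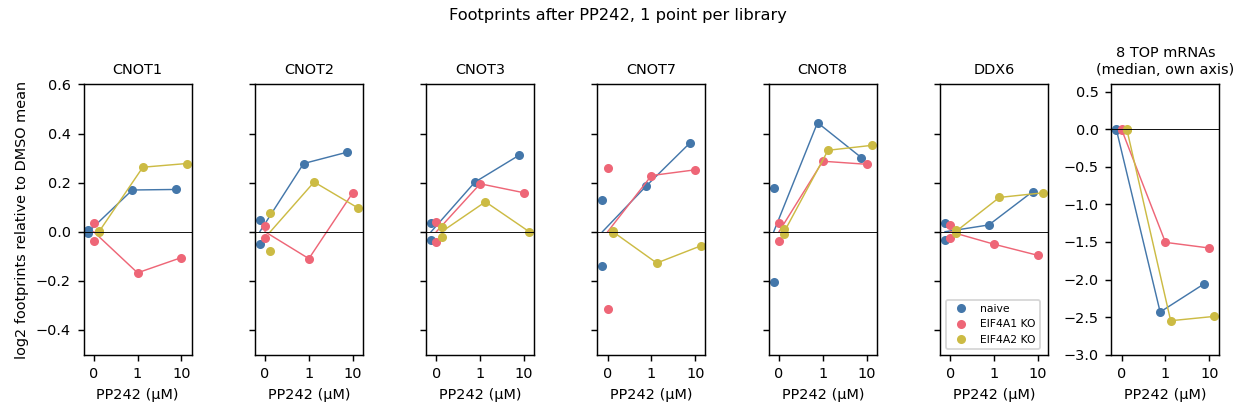
Log2 footprints of each library relative to the DMSO mean of its genotype, by PP242 concentration (µM), with 1 point per library; lines join the DMSO mean and the 2 treated libraries, and the median of 8 TOP mRNAs has its own axis. CNOT1 rises to 0.26 and 0.28 in EIF4A2 KO cells and is at -0.17 and -0.11 in EIF4A1 KO cells, while the TOP median falls to between -2.55 and -1.51.

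Among other pathway genes under PP242, 0 of 7 further CCR4-NOT subunits were called in naive cells. Of the adaptors 2 of 12 rose and 2 fell, the falls being ZFP36L1 (-1.69) and ZFP36L2 (-0.69), which bind AU-rich elements and recruit CCR4-NOT. AGO2 fell by 0.53 and TNRC6A rose by 0.36 in the silencing list, 2 of 7, and 0 of 10 decapping factors were called. In EIF4A1 KO cells CNOT6 rose by 0.56, 1 of 7, BTG1 rose by 0.58 and ZFP36L2 fell by 0.73, 2 of 12, and 0 of 10 and 0 of 7 were called in the other lists. In EIF4A2 KO cells 3 of 12 adaptors rose and 2 fell, ZFP36L1 (-1.46) and ZFP36L2 (-1.09) with the largest changes. EDC4 rose by 0.33, 1 of 10, and AGO2 fell by 0.76 and TNRC6B rose by 0.39, 2 of 7.

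Capture with SBP-eIF4A1 was unequal among the members, from CNOT1, which was depleted most, to CNOT7, which was enriched. CNOT1 stood at 543 and 544 CPM in input and 200 and 188 CPM in pulldown, a log2 capture of -1.49 ± 0.06 (2.81-fold lower in pulldown, adjusted p = 1.1e-12, percentile 4.36 of all transcripts). CNOT2 stood at 62.0 and 62.9 CPM in input and 30.8 and 31.6 CPM in pulldown (-0.999 ± 0.076, adjusted p = 6.3e-09). DDX6 stood at 104 and 101 CPM in input and 84.9 and 79.6 CPM in pulldown (-0.31 ± 0.08, adjusted p = 0.0024). CNOT7 was higher in pulldown, with 120 and 123 CPM in input and 147 and 145 CPM in pulldown (0.27 ± 0.06, adjusted p = 0.00070). For each of these genes the pulldown and input libraries did not overlap. CNOT3 (0.12) and CNOT8 (0.01) did not pass. With 4 of 6 called, the share was close to the 55.4% of 26599 transcripts called in this comparison.

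With SBP-eIF4A2, CNOT1 and CNOT2 were depleted to a like degree and DDX6 more strongly. CNOT1 stood at 687 and 671 CPM in input and 248 and 261 CPM in pulldown (-1.41 ± 0.05, adjusted p = 1.1e-12). CNOT2 stood at 67.5 and 67.1 CPM in input and 33.4 and 34.3 CPM in pulldown (-0.99 ± 0.07, adjusted p = 2.4e-09). DDX6 stood at 106 and 100 CPM in input and 48.7 and 57.9 CPM in pulldown (-0.95 ± 0.08, adjusted p = 1.3e-08). These 3 genes, the scaffold, a NOT-module subunit and the helicase, were lower in both pulldown libraries than in both inputs. CNOT3 rose slightly, from 40.8 and 36.9 CPM to 42.8 and 47.2 CPM (0.21 ± 0.08, adjusted p = 0.033), so that 4 of 6 were called, where 59.8% of transcripts were. CNOT7 (-0.003) and CNOT8 (-0.14) did not pass. The CNOT3 call was lost with DESeq2's Wald test (adjusted p = 0.099), without the count filter (0.089) and without either SBP-eIF4A1 input (0.072 and 0.073), either SBP-eIF4A1 pulldown (0.066 and 0.065), SBP-eIF4A2 input replicate 2 (0.11, adjusted p = 0.408) or SBP-eIF4A2 pulldown replicate 2 (0.12, adjusted p = 0.217).

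The difference between the proteins, tested as an interaction, was called for 2 of 6 members and for 15.7% of transcripts. DDX6 mRNA was captured more with SBP-eIF4A1 than with SBP-eIF4A2 by 0.63 ± 0.11 on the log2 scale (1.55-fold, adjusted p = 0.00071), and no single library left out ended that call. CNOT7 was captured more by 0.27 ± 0.08 (1.21-fold, adjusted p = 0.028). That call was lost without any one of 6 libraries, both inputs and both pulldowns of SBP-eIF4A1 and both inputs of SBP-eIF4A2 (adjusted p between 0.070 and 0.131), and with DESeq2's size factors (0.056) or Wald test (0.084). CNOT1 (-0.07 ± 0.08), CNOT2 (-0.01 ± 0.10), CNOT3 (-0.10 ± 0.12) and CNOT8 (0.15 ± 0.13) did not pass. In input, CNOT1 was the 1 of 6 members that differed between the cells, where 18.5% of transcripts did: it was lower in SBP-eIF4A1 than in SBP-eIF4A2 cells by 0.32 ± 0.05 (adjusted p = 0.00032).

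Other pathway mRNAs were called in both directions in the SBP-eIF4A1 pulldown, where 7093 of 26599 transcripts were called lower and 7636 higher. In the list of further subunits 4 of 7 fell and 1 rose, with CNOT6L (-1.61) and CNOT4 (-1.101) lowest. Of the silencing factors 6 of 7 fell and 1 rose, and the furthest were TNRC6B (-1.65) and AGO3 (-1.40). Of the decapping list 5 of 10 fell and 1 rose, XRN1 with -1.63 and LSM1, a small ring protein that binds shortened mRNA ends, with 1.37. Of the adaptors 4 of 12 rose and 5 fell, among them BTG2 (0.87). The list medians were -0.28, -0.63, -0.22 and -0.06, and that of all transcripts was 0.04.

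In the SBP-eIF4A2 pulldown 7987 of 26599 transcripts were called lower and 7916 higher. There 3 of 7 further subunits fell and 1 rose, with CNOT6L (-1.46) and CNOT10 (-1.16) lowest. Of the silencing factors 4 of 7 fell and 1 rose, and the furthest were AGO4 (1.36) and TNRC6B (-1.16). Of the decapping list 4 of 10 rose and 4 fell, with XRN1 (-1.66) and LSM1 (1.01) furthest. Of the adaptors 5 of 12 rose and 3 fell, among them BTG2 (1.11) and PARN (-1.28). In the difference between the proteins, 1410 of 26599 transcripts were called lower for SBP-eIF4A1 and 2767 higher. There 4 of 7 silencing factors were captured less with SBP-eIF4A1, AGO3 (-0.81) and AGO4 (-0.67) the most. So were 4 of 12 adaptors, PAN3 (-0.56) and PAN2 (-0.55) the most, and 1 of 12 was captured more. LSM1 was captured more (0.36), 1 of 10, and 0 of 7 further subunits were called. Silencing factors also differed in input, where 18.5% of all transcripts were called. Of these 7 factors, 4 were higher and 1 lower in input of SBP-eIF4A1 than of SBP-eIF4A2 cells (list median 0.36). The part of input levels in these capture differences was not tested.

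In the siRNA experiment the members' capture with the same SBP-eIF4A1 bait took another order. After siControl, CNOT3 stood at 47.6 and 38.8 CPM in input and 136 and 142 CPM in pulldown, a log2 capture of 1.68 ± 0.19 (3.21-fold higher in pulldown, adjusted p = 1.2e-09). DDX6 stood at 163 and 183 CPM in input and 54.8 and 50.7 CPM in pulldown (-1.71 ± 0.19, adjusted p = 4.0e-10). CNOT7 stood at 187 and 225 CPM in input and 66.1 and 71.6 CPM in pulldown (-1.58 ± 0.19, adjusted p = 2.4e-09). The deadenylase and the helicase were thus depleted about as far as the NOT-module subunit CNOT3 was enriched. CNOT2 stood at 115 and 132 CPM in input and 61.6 and 71.2 CPM in pulldown (-0.89 ± 0.19, adjusted p = 0.00011). CNOT8 stood at 31.7 and 37.1 CPM in input and 21.5 and 25.4 CPM in pulldown (-0.55 ± 0.21, adjusted p = 0.023). CNOT1 did not pass, with 513 and 560 CPM in input and 400 and 506 CPM in pulldown (-0.24 ± 0.18). In all, 5 of 6 members were called and 49.3% of 26706 transcripts. The CNOT8 call was lost without siControl input replicate 2 (adjusted p = 0.161) or siControl pulldown replicate 1 (0.198). Without the library labelled siLARP1 input replicate 2, which shares the fit, 5 of 6 were called too.

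Capture after siControl minus capture without siRNA, a comparison added after both had been seen, was called for 5 of 6 members and for 50.2% of 26114 transcripts. It was higher after siControl for CNOT3 by 1.63 ± 0.17 (adjusted p = 2.1e-06) and for CNOT1 by 1.31 ± 0.16 (adjusted p = 1.1e-05). It was lower for CNOT7 by 1.79 ± 0.16 (adjusted p = 4.2e-07), for DDX6 by 1.33 ± 0.15 (adjusted p = 4.9e-06) and for CNOT8 by 0.50 ± 0.19 (adjusted p = 0.037). CNOT7 thus went from enriched to depleted between the experiments, and CNOT2 (0.17 ± 0.17) did not pass. The experiments differ in siRNA transfection and were separate sets of libraries, which cannot be told apart here. Input levels, scaled separately in each experiment and not tested against each other, are set side by side here. CNOT2 was 115 and 132 CPM in siControl input against 62.0 and 62.9 CPM without siRNA, CNOT7 187 and 225 against 120 and 123 CPM, and DDX6 163 and 183 against 104 and 101 CPM. CNOT1 was 513 and 560 against 543 and 544 CPM, CNOT3 47.6 and 38.8 against 40.6 and 40.2 CPM, and CNOT8 31.7 and 37.1 against 38.3 and 36.9 CPM. Inputs of CNOT2, CNOT7 and DDX6 were thus the higher ones after siControl, and those of the other 3 overlapped. The part of input levels in the capture differences was not tested. The CNOT8 call was lost with DESeq2's Wald test (adjusted p = 0.064) and without any one of 6 libraries, both inputs and both pulldowns without siRNA, siControl input replicate 2 and siControl pulldown replicate 1 (adjusted p between 0.074 and 0.137).

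**Figure D4:**
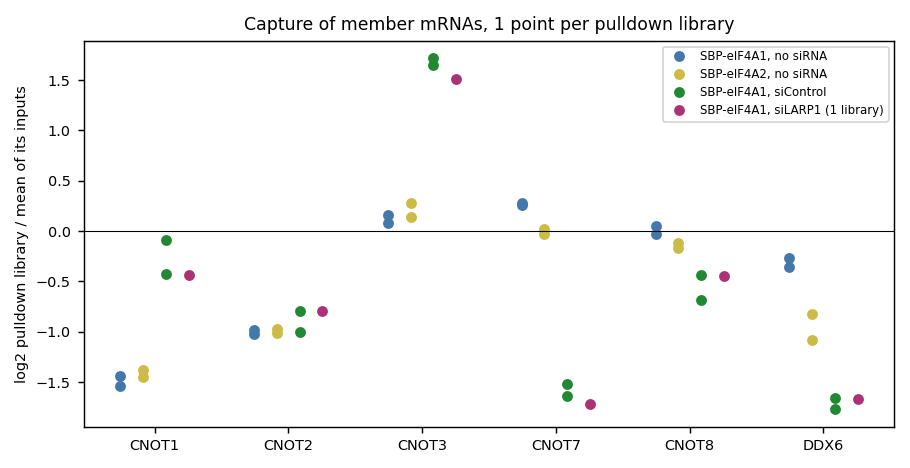
Log2 ratio of each pulldown library to the mean of its inputs for the 6 members, with 1 point per library: SBP-eIF4A1 and SBP-eIF4A2 without siRNA, and SBP-eIF4A1 after siControl and after siLARP1. CNOT3 lies at 0.08 to 0.28 without siRNA and at 1.51 to 1.72 in the siRNA experiment, and CNOT7 at -0.03 to 0.28 against -1.72 to -1.52.

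LARP1 knockdown changed no member's input level by edgeR's test (0 of 6 called, 0.517% of 26706 transcripts called, 85 higher and 53 lower, 89 and 84 with DESeq2's size factors, 118 and 252 with its Wald test). None of the 6 reached an unadjusted p under 0.05, and DESeq2's Wald test also called 0 of 6. LARP1 itself fell by 1.39 ± 0.18 on the log2 scale (adjusted p = 2.2e-05). DDX6 was 163 and 183 CPM in siControl and 146 and 151 CPM in siLARP1 inputs (-0.22 ± 0.18), and CNOT1 513 and 560 against 563 and 531 CPM (0.03 ± 0.18). The members' differences lay between -0.30 and 0.12, with SEs of 0.18 to 0.21, and were not detectable as changes with these libraries. Without the library labelled siLARP1 input replicate 2 the DDX6 difference was -0.24 and the CNOT1 difference 0.07, and 0 of 6 were called.

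Capture after siLARP1 rested on 1 pulldown library, which is assumed to vary like the others. It stood beside the siControl libraries for every member: CNOT3 at 1.51 against 1.65 and 1.72, CNOT7 at -1.72 against -1.64 and -1.52, and DDX6 at -1.67 against -1.66 and -1.77. The difference siLARP1 minus siControl was called for 0 of 6 members and for 0% of transcripts by edgeR (838 at an unadjusted p under 0.05) and for 0 transcripts by DESeq2's Wald test. The members' differences lay between -0.19 and 0.11, each with an SE near 0.3. Without the library labelled siLARP1 input replicate 2 the differences were -0.24 for CNOT1, 0.14 for CNOT2, -0.07 for CNOT3, -0.14 for CNOT7, -0.01 for CNOT8 and 0.07 for DDX6, with 0 called. In the pathway lists 0 genes were called in either siLARP1 comparison.

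After siControl, 6730 of 26706 transcripts were called higher in the pulldown and 6442 lower. Among the 7 silencing factors 5 were enriched, TNRC6C (1.15) and AGO4 (0.94) the most. With the same bait without siRNA, 6 of these 7 were called lower in the pulldown and 1 higher. Capture after siControl minus capture without siRNA was called higher for 6 of the 7 (list median 1.22), and for 6903 of 26114 transcripts. PAN2, the catalytic subunit of another deadenylase, was enriched by 1.99 and ZFP36L2 by 1.25, with 4 of 12 adaptors up and 4 down. EDC4, a decapping scaffold, was enriched by 1.36 and LSM1 depleted by 1.08, with 3 of 10 up and 4 down. Of the further subunits 1 of 7 rose and 3 fell, CNOT6L (-1.34) and CNOT4 (-0.70) the most.

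The patterns likest to each member over the 31 libraries were sought among 47 listed genes, by Pearson's r of log2 CPM (pseudocount 0.5) after the mean of each of 4 kinds of library was subtracted. CNOT1 was likest to TNRC6B (r = 0.87) and PAN2 (0.85), CNOT2 to PARN (0.90) and CNOT4 (0.85), and CNOT3 to EIF4ENIF1 (0.91) and CNOT10 (0.90). CNOT7 was likest to LSM1 (0.78) and CNOT9 (0.73), DDX6 to the same genes (0.78 and 0.69), and CNOT8 to BTG1 (0.70) and AGO4 (0.63). The points share libraries and depth, and the pulldowns of the siRNA experiment weigh in each value, so these r describe the libraries and have no p.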

How the data were processed

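The authors deposited 1 file per library of raw counts per Ensembl transcript (227264 listed, 100283 with a length); CASAVA 1.8, STAR 2.7.0a and hg38 are listed, per the submitters' processing notes, and the counting tool is not given in the sources used here. The other deposited measure, the length in codons of the counted region, is not a unit of expression. Many transcripts hold identical counts, so transcripts were reduced to 1 per locus: of 77343 distinct count vectors, a transcript was dropped when its log2 CPM correlated at 0.9 or more with a kept one within 10 rows, leaving 35498. No gene names are given in the files. Members were matched by the given IDs; the 47 other genes took IDs and protein lengths recalled from general knowledge, since no protein table was used here. For all 47 the counted length equalled the protein length minus 9, and the 53 named genes stood in the order of the RefSeq table with 0 breaks.

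Tests used edgeR 4.0.16 in R 4.3.3 (TMM, filterByExpr with minimum count 10 and minimum total 15, glmQLFit, glmQLFTest, two-sided, Benjamini-Hochberg over all transcripts tested, threshold 0.05) and were tested on simulated data. There, with 1 comparison per fit, they recovered 36.5% to 81.4% of log2 changes of 1, so smaller changes can be missed. The 7 fits covered RNA-seq, DMSO footprints, both together, footprints with PP242, pulldowns without siRNA, pulldowns with siRNA, and siControl with no siRNA. CPM are scaled by TMM within such a fit. Alternatives were DESeq2 1.42.0 (size factors and Wald test), no count filter, every distinct transcript, a replicate block, a dose score, fewer genotypes and leaving out each replicate. Counts of replicates differed by more than sampling noise in every group (chi-square per degree of freedom 1.25 to 12.7). Members and lists were chosen with earlier results of these data known. Named genes were the 6 members, the targeted genes, and per list and comparison the 2 called with the largest change, apart from a result not reported here. TOP control genes were RPS6, RPL3, RPL4, RPL5, RPLP0, EEF1A1, EEF2 and PABPC1.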

Additional observations from a re-analysis of the deposited data

Results flagged for a closer look

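A test of the difference between groups passed for 9 member values. The PP242 response of CNOT1 was lower in EIF4A1 KO than in naive cells (-0.30 on the log2 scale) and than in EIF4A2 KO cells (-0.40). Of all transcripts, 6.07% and 6.21% were called in these 2 comparisons. Both CNOT1 values share their DMSO libraries with the CNOT1 differences between these cells in DMSO. Capture with SBP-eIF4A1 exceeded capture with SBP-eIF4A2 for DDX6 (0.63) and CNOT7 (0.27), where 15.7% of transcripts were called. Between the SBP-eIF4A1 pulldown after siControl and that without siRNA, capture differed by 1.31 for CNOT1, 1.63 for CNOT3, -1.79 for CNOT7, -0.50 for CNOT8 and -1.33 for DDX6. That comparison was added after both captures had been seen, and 50.2% of transcripts were called in it. The calls of CNOT1 against naive cells, of CNOT7 between the proteins and of CNOT8 were lost in several other settings, as given above. The CNOT1 call against EIF4A2 KO cells was lost with a dose score. No group held 4 or more libraries, so no single library could be tested as an outlier.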

How the results depend on the processing

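Of 1590 recomputed member values, 1524 kept their side of the threshold, 56 lost the call and 10 gained it. Of 455 recomputed values of called results 0 changed sign. Of 1135 recomputed values of uncalled results 50 did, and these 50 are among the 1524. With DESeq2's Wald test the members called were 1 for footprints of EIF4A1 KO against naive, 0 for PP242 in naive, 1 for PP242 in EIF4A2 KO and 1 for the capture difference. DESeq2's size factors gave 1 for the capture difference, and no count filter gave 1 for PP242 in naive. With a dose score 0 were called for PP242 in naive, for PP242 in EIF4A2 KO and for the differences of the response between EIF4A1 KO and naive or EIF4A2 KO cells. Over the settings other than omissions of 1 library, the fewest transcripts called in these comparisons were 288, 448, 2 and 1. In the main fit they were 1922, 2397, 1244 and 1274. Without 1 library, members called ranged from 1 to 2 for RNA, 1 to 2 for footprints of EIF4A1 KO against naive, 1 to 3 against EIF4A2 KO, 1 to 3 for translation efficiency, 0 to 2 for PP242 in naive, 1 to 2 for PP242 in EIF4A2 KO, 0 to 1 for the response of EIF4A1 KO minus naive and 1 to 2 for the capture difference. Over the same omissions transcripts called spanned 7415 to 8289 (9390 with every library) for RNA and 2577 to 4607 (4506) for footprints of EIF4A1 KO against naive. Replicate numbers deviated together in siControl input and pulldown (r of replicate differences 0.49), where the replicate block called the same number of members (5). Between the other groups r was -0.16 to 0.10. The replicate block changed no count of members called, as in the 2 of 6 in footprints of EIF4A1 KO. Since RNA-seq numbers deviated oppositely (r = -0.10), a crossed block was added after seeing the data: 2 members (CNOT7, DDX6) were called for RNA, and 0 members for EIF4A2 KO footprints.
Testing every distinct transcript raised the counts, to 26611 for RNA and 42029 for SBP-eIF4A1 capture, because more are tested. With DESeq2's Wald test 2207 transcripts were called for EIF4A1 KO footprints and 523 for EIF4A2 KO footprints (1596 with edgeR). For siLARP1 against siControl input 24 transcripts were called with the replicate block, a fit without the siLARP1 pulldown library, whose label has no replicate number. That was the fewest of any setting other than omissions of 1 library. For PP242 in EIF4A1 KO cells the Wald test called 207 higher and 535 lower, against 475 and 763 with edgeR. Depth limits CNOT7 and CNOT8, with 87 to 335 and 109 to 375 footprint counts per library.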

Other observations

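Across the 31 libraries, with the mean of each kind of library subtracted, some pairs of members varied alike. CNOT1 and CNOT3 had r = 0.81, CNOT2 and CNOT3 0.77, and CNOT7 and DDX6 0.75. CNOT7 and CNOT8 followed at 0.62 and CNOT1 and CNOT2 at 0.59. By contrast, CNOT1 and CNOT7 had r = -0.73 and CNOT3 and CNOT8 -0.62. The points share libraries and depth, and these values are a description with no test. Pulldowns with and without siRNA were centred together, so the differences between those experiments weigh in each value.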
